A study of Danio rerio with 10 samples.

Results

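Gene expression was compared directly between the higher and the lower of the 2 exposures to a mixture of persistent organic pollutants (POPs) that were sequenced in zebrafish larvae, without use of the controls. The 4 POP125× samples (replicates 1 to 4) and the 3 POP75× samples (replicates 2, 3 and 4) were taken by their labels, 7 of the 10 samples in all. The 3 control samples (replicates 1, 2 and 4) serve below as a background level and enter no test but the alternatives that are named as fits of all 10 samples. Of 32520 genes listed, the 21563 that reached 10 normalized counts in 3 or more of the 10 samples were tested. A normalized count is a number of reads divided by a factor that levels the sequencing depth of the samples, so values of a gene can be compared between samples, but not between genes of different length.

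Every sample was RNA of a pool of whole wild-type larvae of the AB strain at 5 days post fertilization (dpf), 75 larvae by the labels, while the methods give a smaller pool. The POP75× and POP125× larvae grew from the first hours after fertilization in medium with the total mixture at 75 or 125 times the mean level in human blood of a Scandinavian population, renewed daily. All groups, controls included, had 0.1% dimethyl sulfoxide (DMSO), the solvent of the stock. The labels say that treatments were repeated in independent experiments, but not which sample came from which, so p-values measure the spread between these pools only. In bulk RNA of whole larvae, fewer cells of a type and less RNA per cell cannot be told apart.

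The mixture holds perfluoroalkyl acids together with brominated and chlorinated compounds that persist in the body. Perfluoroalkyl acids resemble fatty acids, and several of them bind the peroxisome proliferator activated receptors (PPARs), which switch on the burning of fat. Larvae that meet a toxicant commonly switch on immediate early genes such as those of the AP-1 transcription factor, while low insulin signaling frees the Foxo transcription factors, which in muscle raise ubiquitin ligases and autophagy genes.

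Reads on genes ranged from 15555582 to 20267255 in the POP75× samples and from 13659239 to 18834380 in the POP125× samples, and mitochondrial transcripts took 5.94% to 8.79% of them. POP75× replicate 3 stood apart. Over the genes tested, its median absolute log2 difference was 0.56 from replicate 2 and 0.51 from replicate 4, whereas those replicates differed from each other by 0.29 and the POP125× samples among themselves by 0.16 to 0.30. Clustering of all 10 samples put it with control replicates 2 and 4. The other exposed samples fell into sets that each held both doses. One held POP75× replicate 4, POP125× replicates 3 and 4 and also control replicate 1. The other held POP75× replicate 2 and POP125× replicates 1 and 2, without a control. No label gives a batch. Results are therefore given with and without POP75× replicate 3, and the part of that sample in a difference was not tested otherwise.

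No gene passed the test between the doses (limma on log2 values, 0 of 21563 genes at a Benjamini-Hochberg adjusted p under 0.05, 0.0% called). At an unadjusted p under 0.05 there were 824 genes, 3.82% of those tested, against about 5% where no gene differs. Of these, 534 (2.48%) had higher and 290 (1.34%) lower levels in POP125× samples, 64.8% of them higher. With scaling by total reads in place of the deposited factors, 75.2% of 553 such genes were higher, with edgeR 432 of 815 were, with DESeq2 462 of 866 (53.3%) and with DESeq2 on all 10 samples 555 of 1143 (48.6%). The values of the 4 POP125× and the 3 POP75× samples did not overlap in 1228 genes (5.69%), 636 (2.95%) higher and 592 (2.75%) lower at POP125×. A share of about this size arises when groups of 4 and 3 samples do not differ. Non-overlap of a single gene is therefore a description only. The number of genes at an unadjusted p under 0.05 varied with the samples in the fit. It was 782 without POP75× replicate 3, 488 higher and 294 lower at POP125×, with again 0 genes called. These counts are the background for the list counts without that sample. The number was 2332 without POP75× replicate 2, with 1 called (*irf1b*), and 1292 without POP75× replicate 4. It was 459 and 482 without POP125× replicates 2 and 3. With the set of samples as a term it was 2432, with 4 genes called, but the sets were drawn from these same values. The median log2 difference of all genes was -0.01, and the median standard error of a gene's log2 difference was 0.24. With that median, all genes split nearly evenly above and below 0, which is the background for such counts in the lists.

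Tools that model counts gave other numbers on the reads recovered from the same values. The quasi-likelihood test of edgeR called 0 genes, with 815 at an unadjusted p under 0.05. DESeq2 on the 7 samples called 10 genes, all with higher levels at POP125×: *fbxo32* (adjusted p = 9.18e-07), *bicc2* (0.00195), *pmaip1* (0.00691), *retreg1* (0.00780), *fosb* (0.0116), *igsf9bb* (0.0121), *cyp24a1* (0.0147), *scg2b* (0.0158), *wipf3* (0.0479) and *pnocb* (0.0498). Without POP75× replicate 3, an alternative chosen after seeing the data, DESeq2 called 2 genes, *fbxo32* (3.52e-05) and one identifier of *rnps1* (0.000118). In limma the adjusted p of *fbxo32* was 0.756, and each of the other 55 named genes described below had an adjusted p of 0.903. The lowest adjusted p of any gene, 0.735 in limma, belonged to *CR954226.2* (ENSDARG00000102098), a gene without a descriptive name that was picked after its values were seen. It had 0 reads in each POP75× sample and 17.9, 8.51, 15.0 and 13.1 normalized counts in POP125× replicates 1 to 4, at least 4.57-fold higher than a floor of 3 reads per POP75× library. Control samples had 2.86 to 10.8 normalized counts. *CR954226.2* reached the filter of 10 normalized counts only in POP125× replicates 1, 3 and 4 and control replicate 2. Its low p therefore follows in part from the filter.

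**Figure D1:**
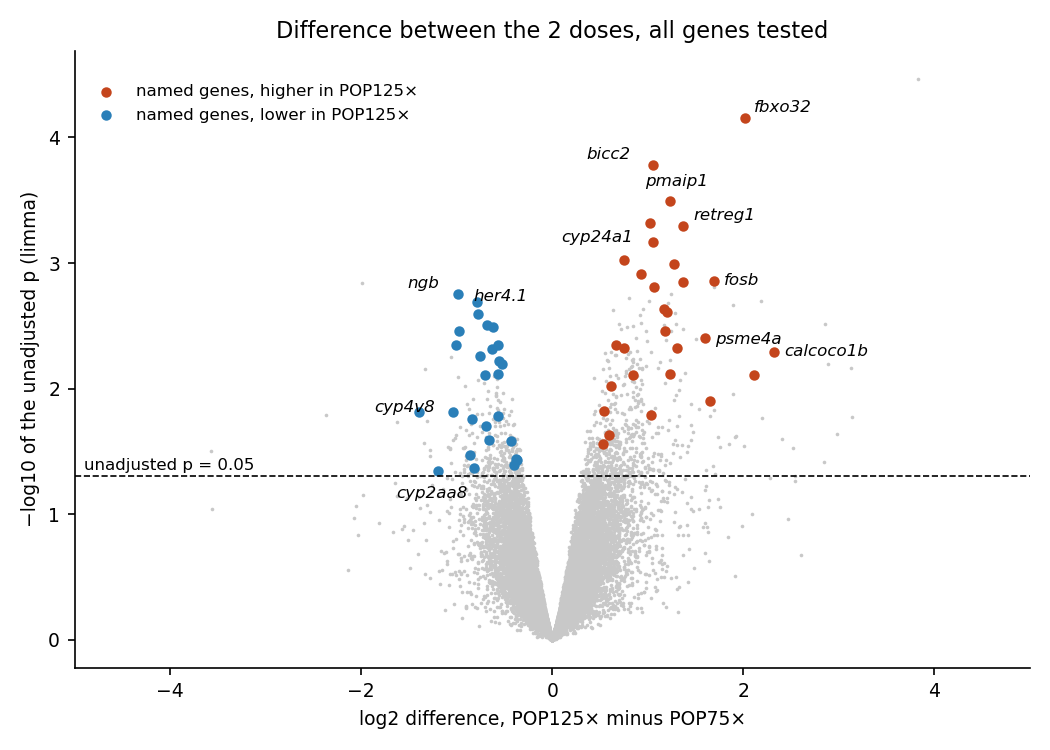
Log2 difference between POP125× and POP75× samples (x axis) against -log10 of the unadjusted limma p (y axis) for the 21563 genes tested, as grey points, with the 29 named genes higher at POP125× in orange and the 27 lower in blue. The dashed line is an unadjusted p of 0.05, and 824 genes lie above it. No gene passed the adjusted threshold of 0.05.

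The genes named below were taken by rules on p, size, non-overlap and list membership, with 4 genes that the study compares between the doses (*fbxo32*, *fosb*, *cdca7a* and *calcoco1b*), 29 with higher and 27 with lower levels at POP125×. Their p and direction in this comparison follow from that choice, so their values are a description. The gene lists were written with earlier results of these data known. A share of list members above that of all genes is therefore a description too. Values of single genes are normalized counts, in the order of the replicates. In 28 of the 29 higher genes no POP125× value overlapped a POP75× value, and in 24 of the 27 lower genes, against 2.95% and 2.75% of all genes, and since non-overlap went into the rules nothing is read from these counts. All 4 POP125× samples were above all 3 controls in each of the 29 higher genes. The POP75× samples were all above the controls in 15 of them, among these *fbxo32*, *retreg1*, *igfbp1a*, *pdk2b* and *cyp24a1*, and overlapped the controls in 14, among these *bicc2*, *ulk1a* and *atf3*. Of the 27 lower genes, 24 had all POP125× samples below all controls, with *cyp2p8*, *her15.1* and *CABZ01079178.1* as the exceptions. Only *mcm6*, *cdca7b*, *ska1* and *cyp2aa8* among them had all POP75× samples below the controls too. POP75× replicate 3 had the lowest POP75× value in 24 of the 29 higher genes and the highest in 20 of the 27 lower genes.

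Genes of muscle protein breakdown held the named gene with the lowest p. *fbxo32* (ENSDARG00000040277) encodes atrogin-1, the muscle-specific part of a ubiquitin ligase that marks proteins for breakdown and that Foxo factors switch on in wasting mammalian muscle. It had 133, 105 and 108 in replicates 2, 3 and 4 of POP75× and 276, 666, 431 and 617 in replicates 1 to 4 of POP125×, against 42.3 to 69.7 in the controls. The 3 groups of samples did not overlap, and the POP75× samples lay close together. The log2 difference was 2.02 (SE 0.29, 95% interval 1.36 to 2.69) and 1.96 without POP75× replicate 3. It was 2.24 within the set that holds POP75× replicate 4 and 1.68 within the set that holds POP75× replicate 2. Directly next to *fbxo32* on the chromosome, with no protein-coding gene between them in the RefSeq order of the GRCz12tu assembly, lies *klhl38b* (ENSDARG00000040278), a gene of the kelch-like family. It had 102, 52.2 and 76.2 in replicates 2, 3 and 4 of POP75× and 174, 286, 135 and 203 in replicates 1 to 4 of POP125× (log2 difference 1.36, SE 0.30, and 1.12 without POP75× replicate 3). As for *fbxo32*, its highest POP125× value was in replicate 2.

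The second ubiquitin ligase of muscle wasting, *trim63a* (ENSDARG00000028027), also known as MuRF1, is not among the genes taken by the rules and was picked after its values were seen. It had 711, 367 and 338 in replicates 2, 3 and 4 of POP75× and 845, 1509, 827 and 1331 in replicates 1 to 4 of POP125×, a log2 difference of 1.29 (SE 0.31) that was 1.15 without POP75× replicate 3, and its 2 groups did not overlap. The list of Foxo factors and muscle atrophy genes held 15 tested genes, of which *fbxo32* and *trim63a* were at an unadjusted p under 0.05 with higher levels (13.3%, against 2.48% of all genes) and 12 had a difference above 0. Its median log2 difference was 0.39 and 0.15 without POP75× replicate 3. The Foxo factors themselves did not pass this threshold, with mean levels of 659 at POP75× and 896 at POP125× for *foxo1a* and of 3082 and 3535 for *foxo3b*. Structural genes of skeletal muscle had no member at this threshold among 39 tested, against 3.82% of all genes in either direction. At that share a list of this size can hold no member, so nothing is read from this count.

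In the autophagy list, some genes had higher levels at POP125× while the median of the list was at 0. Autophagy encloses parts of the cytoplasm in a double membrane and delivers them to the lysosome. Of 28 tested genes, 4 were at an unadjusted p under 0.05 with higher levels at POP125× (14.3%, against 2.48% of all genes) and none with lower levels, and the median log2 difference of the list was 0.00 (0.05 without POP75× replicate 3). *retreg1* (ENSDARG00000079059), the receptor that selects endoplasmic reticulum for autophagy, had 115, 69.3 and 119 in replicates 2, 3 and 4 of POP75× and 184, 329.6, 257 and 273 in replicates 1 to 4 of POP125×, against 25.4 to 42.9 in the controls (log2 difference 1.37, SE 0.26, and 1.12 without POP75× replicate 3). The 3 groups of samples did not overlap for this gene. *calcoco1b* (ENSDARG00000016391), the fish counterpart of a mammalian receptor for the same process, had 230.4, 24.5 and 57.6 in replicates 2, 3 and 4 of POP75× and 497, 461, 262 and 252 in replicates 1 to 4 of POP125×. The POP75× samples ranged here from below the controls (30.5 to 41.1) to nearly the lowest POP125× value, and the log2 difference of 2.33 (SE 0.63) became 1.59 without POP75× replicate 3 and 3.19 without POP75× replicate 2. *ulk1a* (ENSDARG00000062518), a kinase that starts autophagy, had 174, 166 and 188 in replicates 2, 3 and 4 of POP75× and 358, 244, 252 and 277 in replicates 1 to 4 of POP125× (log2 difference 0.67, SE 0.18, and 0.62 without POP75× replicate 3). The POP75× samples were at the level of the controls, 169 to 177. *atg9b* (ENSDARG00000055292), of the family that carries membrane to the growing autophagosome, had 760.1, 534 and 870.3 at POP75× and 1072, 1034, 955 and 1068 at POP125× (log2 difference 0.54, SE 0.18, and 0.34 without POP75× replicate 3).

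*psme4a* (ENSDARG00000087911), which encodes an activator that caps the proteasome, had 1593, 446 and 674 in replicates 2, 3 and 4 of POP75× and 2788, 3514, 1625 and 2004 in replicates 1 to 4 of POP125×, with 266 to 319 in the controls. The log2 difference was 1.60 (SE 0.42) and 1.197 without POP75× replicate 3. In both dose groups, the samples of the set with POP75× replicate 2 had the higher values. With the set as a term limma called this gene with an adjusted p of 0.0474. The sets were drawn from these same expression values and POP75× replicate 3 adds nothing to that fit, so this call is a description only. *psme4a* was the only one of 43 tested proteasome genes at an unadjusted p under 0.05 (2.33%, against 2.48% of all genes with higher levels), and the median of this list was -0.05 (0.10 without POP75× replicate 3).

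**Figure D2:**
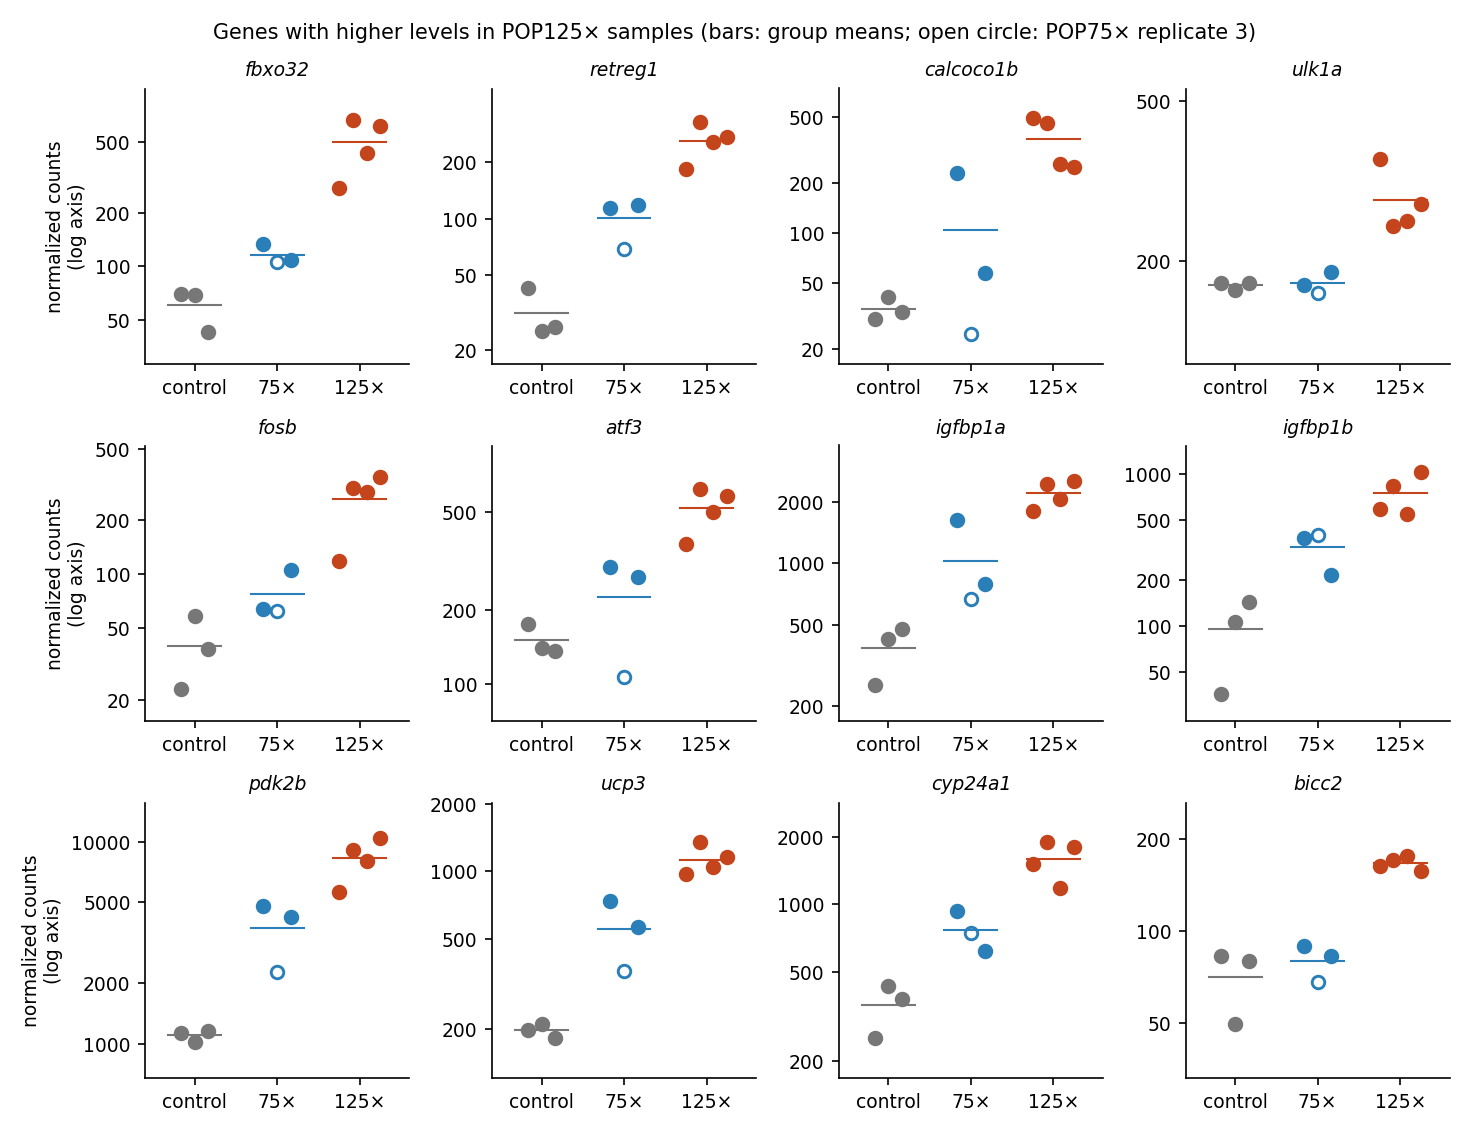
Normalized counts (log axis) of 12 of the named genes with higher levels at POP125×, in each control (grey), POP75× (blue) and POP125× (orange) sample, with the group means as bars and POP75× replicate 3 as an open circle. For *fbxo32* the POP125× samples sit between 276 and 666 and the POP75× samples between 105 and 133. In *bicc2* and *ulk1a* the POP75× samples overlap the controls.

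AP-1 and immediate early genes were the list with the largest share of members beyond the unadjusted threshold. AP-1 is a dimer of Fos and Jun proteins whose genes respond within minutes to growth factors, stress and wounding. Of 24 tested genes, 10 were at an unadjusted p under 0.05, all with higher levels at POP125× (41.7%, against 2.48% of all genes), and 21 had a difference above 0. The median log2 difference was 0.60 with all samples and 0.60 without POP75× replicate 3. In that fit 9 of 24 genes were at this threshold, against 488 of 21563 genes with higher levels. *fosb* (ENSDARG00000055751), a Fos subunit, had 64.4, 62.9 and 105 in replicates 2, 3 and 4 of POP75× and 119, 305, 287 and 349 in replicates 1 to 4 of POP125×, against 22.9 to 58.7 in the controls (log2 difference 1.69, SE 0.37, and 1.56 without POP75× replicate 3). POP125× replicate 1 lay just above the POP75× samples and the other 3 POP125× samples far above them. *junba* (ENSDARG00000074378), a Jun partner, had 862, 457 and 299 in replicates 2, 3 and 4 of POP75× and 1089.6, 1816, 893 and 991 in replicates 1 to 4 of POP125× (log2 difference 1.23, SE 0.36, and 1.18 without POP75× replicate 3). Here POP75× replicate 2 nearly reached the lowest POP125× sample. *atf3* (ENSDARG00000007823), a stress-induced factor that pairs with Jun proteins, had 298, 107 and 272 in replicates 2, 3 and 4 of POP75× and 369, 618, 500.2 and 581 in replicates 1 to 4 of POP125× (log2 difference 1.302, SE 0.35, and 0.83 without POP75× replicate 3). POP75× replicate 3 was below the controls (136 to 176). *fosl2* (ENSDARG00000040623), a further Fos subunit, had 445, 231 and 352 at POP75× and 489, 789, 543 and 597 at POP125× (log2 difference 0.84, SE 0.25, and 0.59 without POP75× replicate 3). The other 6 genes at this threshold, which the rules did not take, were *fosab*, *fosl1a*, *junbb*, *jund*, *egr2a* and *ier2a*, with log2 differences from 0.62 for *ier2a* to 2.20 for *fosl1a*, which had 1.44 without POP75× replicate 3. The summed level of the list was 15040.4, 15305 and 13543 in replicates 2, 3 and 4 of POP75× and 14902, 24057, 19505 and 21195 in replicates 1 to 4 of POP125×, so that POP125× replicate 1 lay within the range of the POP75× samples.

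Among injury cytokines and matrix metalloproteinases, which recruit leukocytes to damaged tissue and remodel the matrix, 6 of 18 tested genes were at an unadjusted p under 0.05, all higher at POP125× (33.3%, against 2.48% of all genes). This count was 3 without POP75× replicate 3, against 488 of 21563 genes with higher levels in that fit. The median log2 difference was 0.73, and 0.41 without that sample. *il11a* (ENSDARG00000037859), encoding the cytokine interleukin-11, was near the lower limit of the measurement with 17.7, 2.13 and 11.7 at POP75× and 19.96, 36.5, 50.5 and 56.7 at POP125× (log2 difference 2.11, SE 0.62, and 1.34 without POP75× replicate 3), and the controls had 0 to 6.89. *cxcl18b* (ENSDARG00000075045), a fish chemokine, had 94.2, 15.98 and 22.5 at POP75× and 72.5, 126, 102.9 and 127 at POP125× (log2 difference 1.65, SE 0.53, and 1.16 without POP75× replicate 3). Its groups overlapped, since POP75× replicate 2 was above POP125× replicate 1, and within the set that holds both of them the difference was 0.02. Without POP75× replicate 2 the log2 difference of all other samples was 2.41. *cxcl8a* (ENSDARG00000104795), the chemokine interleukin-8 that attracts neutrophils, had 12.1, 8.52 and 12.7 at POP75× and 18.9, 35.3, 17.8 and 25.3 at POP125× (log2 difference 1.03, SE 0.35, and 0.87 without POP75× replicate 3) and was the one higher gene whose mean in the controls was not below that at POP75×. *socs3b* (ENSDARG00000026611), a brake on cytokine signaling, had 303, 186 and 238 at POP75× and 352, 462, 356 and 449 at POP125× (log2 difference 0.75, SE 0.20, and 0.58 without POP75× replicate 3). Markers of macrophages and neutrophils themselves had no member at this threshold among 18 tested, against 3.82% of all genes in either direction. So short a list can hold no member at that share, and nothing is read from this count. Their median was 0.16 (0.03 without POP75× replicate 3). Their summed level was 4052, 3124 and 2742 at POP75× and 3411, 3523, 3398 and 3276 at POP125×.

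Of 20 tested genes of insulin and IGF signaling, 4 were at an unadjusted p under 0.05, 3 higher (15.0%, against 2.48% of all genes) and 1 lower at POP125× (5.0%, against 1.34%), with a median of 0.21 (0.08 without POP75× replicate 3). *igfbp1a* (ENSDARG00000099351) encodes a binding protein that holds insulin-like growth factors away from their receptor in low insulin or low oxygen. It had 1628, 668 and 790.2 in replicates 2, 3 and 4 of POP75× and 1806, 2457, 2068 and 2514 in replicates 1 to 4 of POP125×, against 255 to 476 in the controls (log2 difference 1.204, SE 0.29, and 0.95 without POP75× replicate 3). POP75× replicate 2 was close to the lowest POP125× sample and the other POP75× samples were far below it. Its paralog *igfbp1b* (ENSDARG00000038666) had 377, 396 and 219 in replicates 2, 3 and 4 of POP75× and 592, 829, 544 and 1019.7 in replicates 1 to 4 of POP125×, against 36.3 to 145 in the controls. This was one of the few higher genes in which POP75× replicate 3 was not the lowest POP75× sample, and the log2 difference of 1.17 (SE 0.28) was 1.33 without it. *insrb* (ENSDARG00000071524), an insulin receptor, had 1309, 751 and 1260.0 in replicates 2, 3 and 4 of POP75× and 1997, 1503, 1515 and 1536 in replicates 1 to 4 of POP125× (log2 difference 0.60, SE 0.22, and 0.34 without POP75× replicate 3), with POP125× replicate 1 well above the other samples. The lower member, *igfbp2a*, another binding protein, was picked after its values were seen and had a log2 difference of -0.63 (SE 0.23), or -0.43 without POP75× replicate 3.

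In fatty acid oxidation and PPAR genes, 5 of 30 tested members had higher levels at POP125× at an unadjusted p under 0.05 (16.7%, against 2.48% of all genes) and 1 had lower levels (3.33%, against 1.34%), *cpt2*. The median was 0.21 and 0.08 without POP75× replicate 3, with 5 higher and 0 lower genes then, against 488 and 294 of 21563 genes. *pdk2b* (ENSDARG00000059054), a kinase that closes the entry of pyruvate into the citric acid cycle and so favors fat as fuel, had 4773, 2257 and 4225 in replicates 2, 3 and 4 of POP75× and 5627, 9113, 7985 and 10423 in replicates 1 to 4 of POP125×, against 1016 to 1153 in the controls (log2 difference 1.18, SE 0.30, and 0.85 without POP75× replicate 3). Its levels were in the order control, POP75× and POP125× without any overlap. *ucp3* (ENSDARG00000091209), a carrier of the inner mitochondrial membrane, had 739.6, 362 and 566 in replicates 2, 3 and 4 of POP75× and 972, 1349, 1043 and 1153 in replicates 1 to 4 of POP125×, against 182 to 211 in the controls (log2 difference 1.07, SE 0.24, and 0.79 without POP75× replicate 3), in the same order of groups. *pparda* (ENSDARG00000044525), the PPAR delta receptor, had 68.1, 56.5 and 65.4 at POP75× and 91.4, 109, 87.0 and 103.0 at POP125× (log2 difference 0.62, SE 0.19, and 0.54 without POP75× replicate 3). *ppargc1a* (ENSDARG00000067829), the coactivator PGC-1 alpha that drives the making of mitochondria, had 566, 349.5 and 589 at POP75× and 693, 624, 769 and 749 at POP125× (log2 difference 0.53, SE 0.20, and 0.29 without POP75× replicate 3). Both of these log2 differences were smaller than those of *pdk2b* and *ucp3*. The fifth gene, *cpt1b*, which brings fatty acids into mitochondria, had a log2 difference of 0.36 (SE 0.15), and *cpt2*, the enzyme of the next step, of -0.40 (SE 0.17), or 0.40 and -0.34 without POP75× replicate 3. Both were picked after their values were seen.

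Further genes with higher levels had single roles. *cyp24a1* (ENSDARG00000103277), the enzyme that breaks down active vitamin D, had 934, 748 and 620.2 in replicates 2, 3 and 4 of POP75× and 1518, 1892, 1185 and 1795 in replicates 1 to 4 of POP125×, against 254 to 431 in the controls, and its log2 difference of 1.05 (SE 0.21) was 1.05 without POP75× replicate 3. *pmaip1* (ENSDARG00000089307), also called Noxa, a trigger of apoptosis that p53 switches on in mammals, had 137, 90.6 and 110.4 in replicates 2, 3 and 4 of POP75× and 253, 235, 224 and 354 in replicates 1 to 4 of POP125× (log2 difference 1.23, SE 0.22, and 1.08 without POP75× replicate 3). The list of p53 targets, which does not hold it, had a median of 0.15 (0.15 without POP75× replicate 3) with 1 of 16 tested genes at an unadjusted p under 0.05 (6.25%, against 2.48% of all genes with higher levels). *bicc2* (ENSDARG00000076557), of the Bicaudal C family of RNA-binding proteins, had 89.5, 68.2 and 83.0 in replicates 2, 3 and 4 of POP75× and 164, 171, 176 and 157 in replicates 1 to 4 of POP125×, and the POP75× samples overlapped the controls (49.9 to 83.0). The 4 POP125× samples of this gene were nearly equal, and the log2 difference was 1.06 (SE 0.17), or 0.95 without POP75× replicate 3.

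*scg2b* (ENSDARG00000038574) encodes secretogranin II, a protein of the granules that store neuropeptides, and had 4869, 3834 and 3817 in replicates 2, 3 and 4 of POP75× and 6803, 6572, 9042 and 9763 in replicates 1 to 4 of POP125× (log2 difference 0.93, SE 0.20, and 0.88 without POP75× replicate 3). *pnocb* (ENSDARG00000024189), the precursor of the neuropeptide nociceptin, had 108, 61.8 and 64.5 in replicates 2, 3 and 4 of POP75× and 139.7, 162, 218 and 231 in replicates 1 to 4 of POP125× (log2 difference 1.27, SE 0.27, and 1.13 without POP75× replicate 3). In both genes POP125× replicates 3 and 4 were the highest samples. *igsf9bb* (ENSDARG00000069467), an adhesion protein of the immunoglobulin superfamily, had 158, 111 and 138 at POP75× and 328, 239.6, 240.3 and 295 at POP125× (log2 difference 1.02, SE 0.19, and 0.89 without POP75× replicate 3). *wipf3* (ENSDARG00000036245), a partner of the WASP proteins that build actin filaments, had 164, 162 and 159 at POP75× and 237, 314, 276 and 267 at POP125× (log2 difference 0.75, SE 0.16, and 0.75 without POP75× replicate 3). The 3 POP75× samples of *wipf3* were nearly equal. The list of neuron and synapse genes had a median of 0.10 (-0.00334 without POP75× replicate 3), with 2 of 25 tested genes at an unadjusted p under 0.05, both with higher levels (8.0%, against 2.48% of all genes).

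Genes of cell division mostly had log2 differences below 0, and fewer were at the unadjusted threshold without POP75× replicate 3. In the mitosis list, 35 of 36 tested genes had a difference below 0, with a median of -0.40 against -0.01 over all genes. Of the 36, 8 were at an unadjusted p under 0.05 (22.2%, against 1.34% of all genes). Without POP75× replicate 3, 2 of 36 were, against 294 of 21563 genes with lower levels in that fit. Then 30 had a difference below 0, against 10853 of 21563 genes, and the median was -0.20. *plk1* (ENSDARG00000058471), polo-like kinase 1, which drives the entry into mitosis, had 287, 567 and 377 in replicates 2, 3 and 4 of POP75× and 303, 239.6, 199 and 269.8 in replicates 1 to 4 of POP125×, against 556 to 593 in the controls. Its groups overlapped, as POP75× replicate 2 was below POP125× replicate 1, and POP75× replicate 3 was at the level of the controls (log2 difference -0.66, SE 0.25, and -0.40 without POP75× replicate 3). *cenpf* (ENSDARG00000055133), a protein of the kinetochore, had 296, 289.8 and 344 in replicates 2, 3 and 4 of POP75× and 226, 154, 211 and 251 in replicates 1 to 4 of POP125× (log2 difference -0.57, SE 0.19, and -0.62 without POP75× replicate 3). Here POP75× replicate 3 was the lowest of its group and the difference was not smaller without it. *ska1* (ENSDARG00000039354), which couples kinetochores to microtubules, had 28.0, 45.8 and 36.1 at POP75× and 23.1, 17.0, 16.8 and 22.7 at POP125× (log2 difference -0.84, SE 0.29, and -0.66 without POP75× replicate 3), and *ccnb2* (ENSDARG00000036180), a mitotic cyclin, had 24.2, 59.7 and 48.8 at POP75× and 28.4, 19.5, 19.6 and 22.7 at POP125× (log2 difference -0.87, SE 0.35, and -0.61 without POP75× replicate 3). Both were measured at low levels. The summed level of the mitosis list was 8232, 12510.2 and 10704 in replicates 2, 3 and 4 of POP75×, 8967, 6976, 7373 and 8535 in replicates 1 to 4 of POP125× and 14980.2 to 15918 in the controls.

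All 41 tested DNA replication genes had a log2 difference below 0, with a median of -0.29 against -0.01 over all genes. Of the 41, 3 were at an unadjusted p under 0.05 (7.32%, against 1.34% of all genes with lower levels). Without POP75× replicate 3, 30 were below 0, against 10853 of 21563 genes. In that fit 1 was at this threshold, against 294 of 21563 genes with lower levels, and the median was -0.12. *mcm6* (ENSDARG00000057683), a subunit of the helicase that opens DNA for copying, had 758, 866 and 703 in replicates 2, 3 and 4 of POP75× and 642, 671, 552 and 532 in replicates 1 to 4 of POP125×, against 962 to 1079 in the controls (log2 difference -0.37, SE 0.15, and -0.29 without POP75× replicate 3). The levels descended from control to POP75× to POP125× without overlap. *cdca7a* (ENSDARG00000077620), which binds the chromatin remodeler Hells in other vertebrates, had 306, 888 and 309.6 in replicates 2, 3 and 4 of POP75× and 262, 218, 237 and 281 in replicates 1 to 4 of POP125×. POP75× replicate 3 was within the range of the controls (459 to 927), POP75× replicates 2 and 4 were close to the POP125× samples, and the log2 difference of -0.82 (SE 0.35) was -0.31 without that sample. Its paralog *cdca7b* (ENSDARG00000076659) had 248, 285 and 241 at POP75× and 191, 173, 178 and 224 at POP125× (log2 difference -0.43, SE 0.16, and -0.36 without POP75× replicate 3). The 8 subunits of the condensin complexes, which fold chromosomes for mitosis, all had a difference below 0, from -0.09 for *ncaph* to -0.58 for *ncapg2*. None was at an unadjusted p under 0.05, against 3.82% of all genes in either direction. Their median was -0.24 and -0.14 without POP75× replicate 3.

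**Figure D3:**
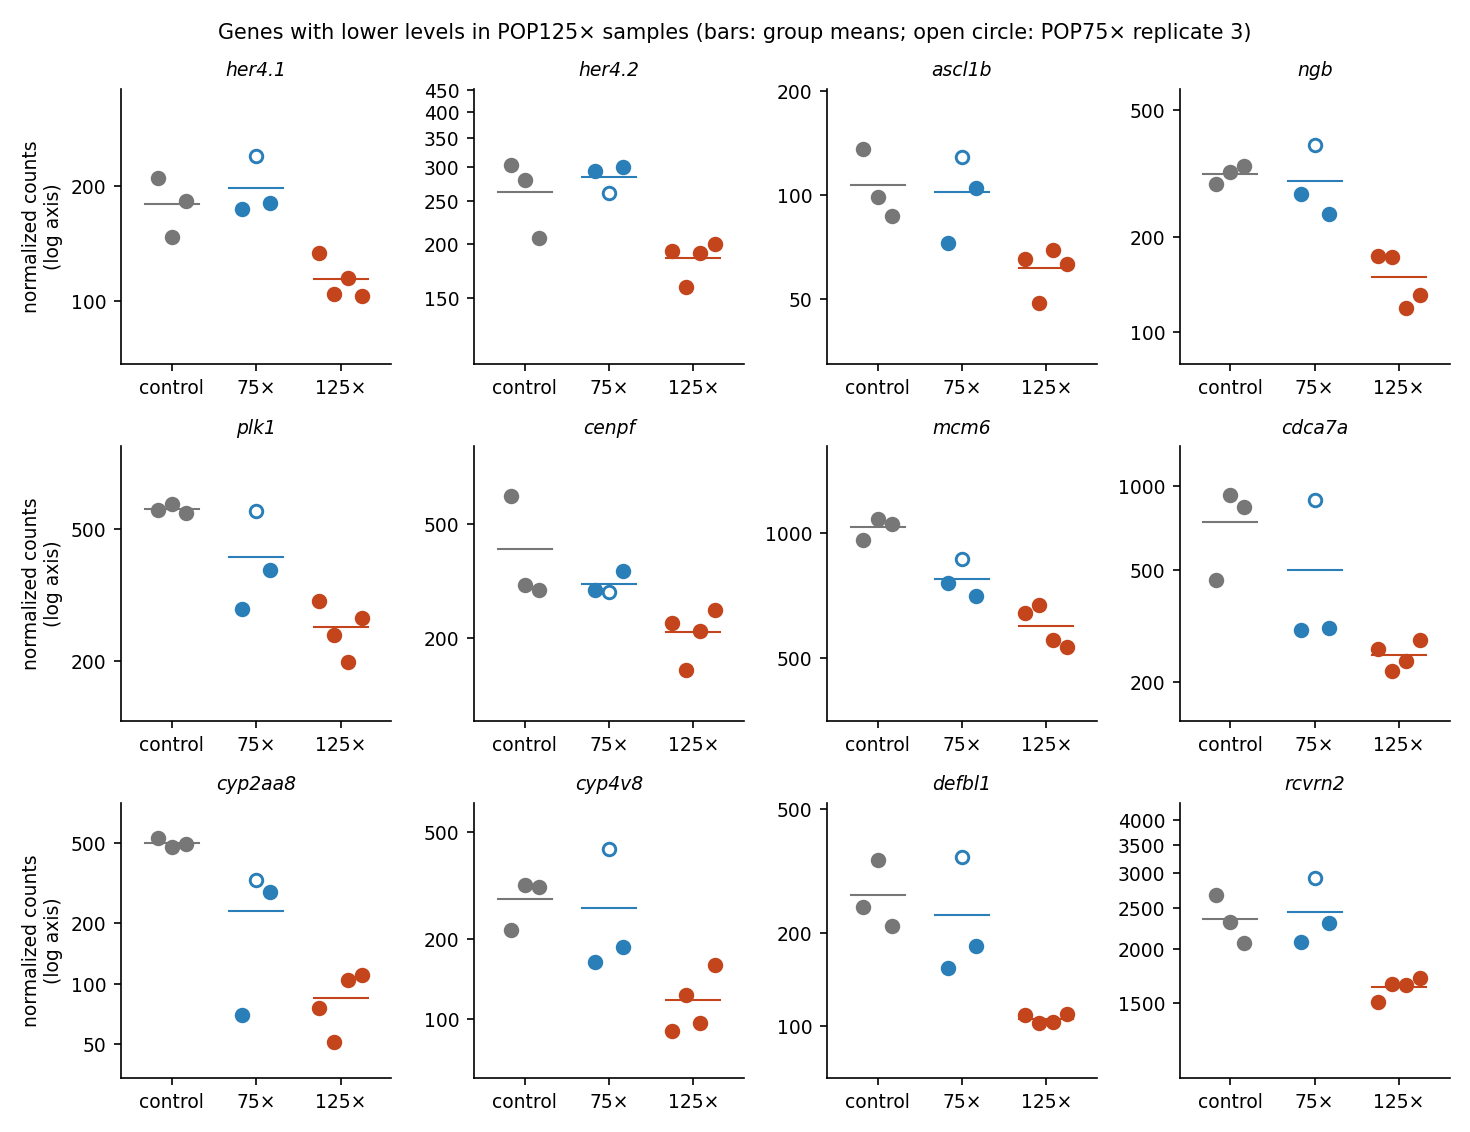
Normalized counts (log axis) of 12 of the named genes with lower levels at POP125×, in each control (grey), POP75× (blue) and POP125× (orange) sample, with the group means as bars and POP75× replicate 3 as an open circle. POP75× replicate 3 is the highest POP75× sample in 10 of the 12 genes. In *cdca7a* the other POP75× samples, at 306 and 309.6, lie close to the highest POP125× sample at 281.

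Neural progenitor and Notch genes had a median of -0.40 over 32 tested genes, of which 7 were at an unadjusted p under 0.05, all lower at POP125× (21.9%, against 1.34% of all genes). Without POP75× replicate 3 the median was -0.24 and 3 genes were at this threshold, against 294 of 21563 genes with lower levels. Notch signaling keeps neural progenitors undifferentiated, through Her repressors that hold down proneural factors. *her4.1* (ENSDARG00000056732), a Her repressor, had 173, 239 and 179.7 in replicates 2, 3 and 4 of POP75× and 133, 105, 115 and 103.0 in replicates 1 to 4 of POP125×, against 147 to 209 in the controls (log2 difference -0.78, SE 0.19, and -0.63 without POP75× replicate 3). *her4.2* (ENSDARG00000094426), its neighbor in a tandem cluster, had 293, 261 and 299.9 in replicates 2, 3 and 4 of POP75× and 192, 159, 191 and 199.9 in replicates 1 to 4 of POP125× (log2 difference -0.62, SE 0.16, and -0.68 without POP75× replicate 3), and *her15.1* (ENSDARG00000054562) had 96.1, 134 and 102.6 at POP75× and 65.1, 73.0, 57.0 and 75.1 at POP125× (log2 difference -0.70, SE 0.21, and -0.56 without POP75× replicate 3). Reads may be shared between near-identical Her copies, so their values are not independent. The POP75× samples of all 3 genes overlapped the controls. *ascl1b* (ENSDARG00000101628), a proneural factor, had 72.7, 129 and 105 at POP75× and 65.1, 48.6, 69.2 and 62.9 at POP125× (log2 difference -0.70, SE 0.25, and -0.51 without POP75× replicate 3), and here POP75× replicate 2 was close to the POP125× samples.

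Cytochrome P450 genes outside the aryl hydrocarbon receptor group, enzymes that oxidize drugs, fatty acids and steroids, had 4 of 34 tested members at an unadjusted p under 0.05 with lower levels (11.8%, against 1.34% of all genes) and 1 with higher levels, *cyp24a1* (2.94%, against 2.48%). The median was -0.26, but -0.06 without POP75× replicate 3, with 1 lower gene then, against 294 of 21563 genes. *cyp2aa8* (ENSDARG00000104540) had 70.0, 329 and 287 in replicates 2, 3 and 4 of POP75× and 75.7, 51.1, 104 and 110.0 in replicates 1 to 4 of POP125×, against 478 to 532 in the controls. POP75× replicate 2 was within the range of the POP125× samples, the other POP75× samples lay between these and the controls, and the log2 difference of -1.195 had an SE of 0.52 and was -0.79 without POP75× replicate 3 and -1.90 without POP75× replicate 2. *cyp4v8* (ENSDARG00000062132) had 163, 432 and 186 in replicates 2, 3 and 4 of POP75× and 90.4, 123, 96.3 and 159.8 in replicates 1 to 4 of POP125× (log2 difference -1.04, SE 0.35, and -0.60 without POP75× replicate 3). POP75× replicate 3 was above all controls, which had 215 to 319. The neighbors *cyp2p8* (ENSDARG00000042982) and *cyp2p9* (ENSDARG00000022631) had 459.8, 641 and 476 at POP75× and 360.4, 375, 434 and 412 at POP125× for the first and 535, 649 and 533 at POP75× and 456, 494, 424 and 403 at POP125× for the second, with log2 differences of -0.40 and -0.36 (SE 0.17 and 0.15), and of -0.25 and -0.27 without POP75× replicate 3. Reads may be shared between close copies of this family too. Genes of the aryl hydrocarbon receptor, the sensor of dioxin-like chlorinated compounds, had a median of 0.07, which turned to -0.13 without POP75× replicate 3, with 1 of 12 tested genes at this threshold, lower at POP125× (8.33%, against 1.34% of all genes). The summed level of this list varied widely within each dose. It was 14010, 7793 and 6785 in replicates 2, 3 and 4 of POP75×, and 11020, 13090, 6845 and 8069 in replicates 1 to 4 of POP125×.

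Among the named lower genes, the lowest p was that of *ngb* (ENSDARG00000053475), neuroglobin, an oxygen-binding protein of neurons. It had 273, 390.0 and 236 in replicates 2, 3 and 4 of POP75× and 173, 173, 119.7 and 131 in replicates 1 to 4 of POP125×, against 294 to 333 in the controls (log2 difference -0.99, SE 0.23, and -0.78 without POP75× replicate 3). *bcl6ab* (ENSDARG00000069295), a transcriptional repressor, had 517, 319.7 and 277 in replicates 2, 3 and 4 of POP75× and 194, 232, 149 and 162 in replicates 1 to 4 of POP125× (log2 difference -0.98, SE 0.25, and -1.06 without POP75× replicate 3), and in it POP75× replicate 2 was above all controls. *rcvrn2* (ENSDARG00000019902), a recoverin, the calcium sensor of photoreceptors, had 2082, 2922 and 2300.2 in replicates 2, 3 and 4 of POP75× and 1509.9, 1661, 1653 and 1714 in replicates 1 to 4 of POP125× (log2 difference -0.56, SE 0.16, and -0.42 without POP75× replicate 3), with the POP75× samples overlapping the controls (2067 to 2673). It was the only one of 42 tested photoreceptor genes at an unadjusted p under 0.05 (2.38%, against 1.34% of all genes with lower levels). *crabp2a* (ENSDARG00000073978), a carrier of retinoic acid, had 585, 783 and 616 at POP75× and 464, 431, 470.3 and 452 at POP125× (log2 difference -0.53, SE 0.15, and -0.40 without POP75× replicate 3). *defbl1* (ENSDARG00000075161), a beta-defensin-like antimicrobial peptide, had 154, 351 and 181 in replicates 2, 3 and 4 of POP75× and 108, 102, 102.9 and 109 in replicates 1 to 4 of POP125× (log2 difference -1.01, SE 0.27, and -0.65 without POP75× replicate 3), and its 4 POP125× samples were nearly equal.

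The remaining lower genes were *mllt3* (ENSDARG00000006754), part of a complex that speeds transcription, with 186, 207 and 210.0 at POP75× and 139.7, 129, 135 and 138 at POP125× (log2 difference -0.56, SE 0.15, and -0.54 without POP75× replicate 3), and *lsm7* (ENSDARG00000058328), of the ring of RNA-binding Lsm proteins, with 316, 446 and 330.1 at POP75× and 245, 251, 222 and 251 at POP125× (log2 difference -0.57, SE 0.17, and -0.42 without POP75× replicate 3). *synpo2b* (ENSDARG00000077157), an actin-binding protein of muscle, had 464, 339.9 and 389.7 at POP75× and 303, 239.6, 242 and 241 at POP125× (log2 difference -0.63, SE 0.17, and -0.73 without POP75× replicate 3), with the highest POP125× value again in replicate 1. *cd248b* (ENSDARG00000077938), a receptor of stromal cells and pericytes, had 172, 156 and 175 at POP75× and 115, 99.7, 113 and 89.9 at POP125× (log2 difference -0.68, SE 0.17, and -0.73 without POP75× replicate 3). In these 2 genes POP75× replicate 3 was the lowest of its group. *spaca4l* (ENSDARG00000116617) had 736, 1079 and 706 at POP75× and 608, 529, 407 and 437 at POP125× (log2 difference -0.75, SE 0.21, and -0.56 without POP75× replicate 3). *CABZ01079178.1* (ENSDARG00000111386) and *BX571960.2* (ENSDARG00000103130) had 142, 137 and 122 at POP75× and 91.4, 66.9, 75.7 and 75.1 at POP125× for the first and 44.8, 107 and 84.0 at POP75× and 11.6, 42.6, 31.8 and 35.8 at POP125× for the second, with log2 differences of -0.79 and -1.39, or -0.77 and -1.13 without POP75× replicate 3. Neither has a descriptive name. *BX571960.2* had the largest difference of the named lower genes, at a low level.

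Summed levels of tissue markers differed widely between single samples of a dose. No tissue list had a member past the adjusted threshold, and the sign of some medians turned without POP75× replicate 3. The lens list, mainly crystallins of the lens fiber, held 29 identifiers, of which 26 were tested. Its summed level over all of them was 67278, 4563 and 29757 in replicates 2, 3 and 4 of POP75× and 52730.2, 68781, 22100.4 and 12309 in replicates 1 to 4 of POP125×. POP75× replicate 3 had the lowest level of the exposed samples and POP75× replicate 2 one of the highest, and the list median of 0.53 turned to -0.62 without it, with 25 of 26 genes above 0 in the first case and 0 of 26 in the second. Exocrine pancreas genes, which encode digestive enzymes, showed the opposite, with 38704, 184624 and 33497 at POP75× and 24185, 41075, 34440.0 and 66319.5 at POP125×. The list median of -0.65 became 0.14. Photoreceptor genes had 97438, 205342 and 108159 at POP75× and 85302, 94968, 97535 and 104830.0 at POP125×, with a median of -0.30 that became -0.14, and skin and keratin genes 162494, 373729 and 194747 and 146707, 137204, 146060.0 and 190975, with a median of -0.39 that became -0.11. Skeletal muscle genes, of which POP75× replicate 3 had the highest summed level among exposed samples, had a median of -0.13 and liver genes of -0.13, which became 0.10 and 0.08 without it. With and without that sample, heart muscle genes had medians of 0.23 and -0.02, cartilage genes of -0.18 and -0.10 and red blood cell genes of -0.21 and 0.05. Control replicates 2 and 4, which clustered with POP75× replicate 3, had low lens levels of 7413 and 7851 and high pancreas levels of 115249 and 110848, while control replicate 1 had 32934 and 29636.

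**Figure D4:**
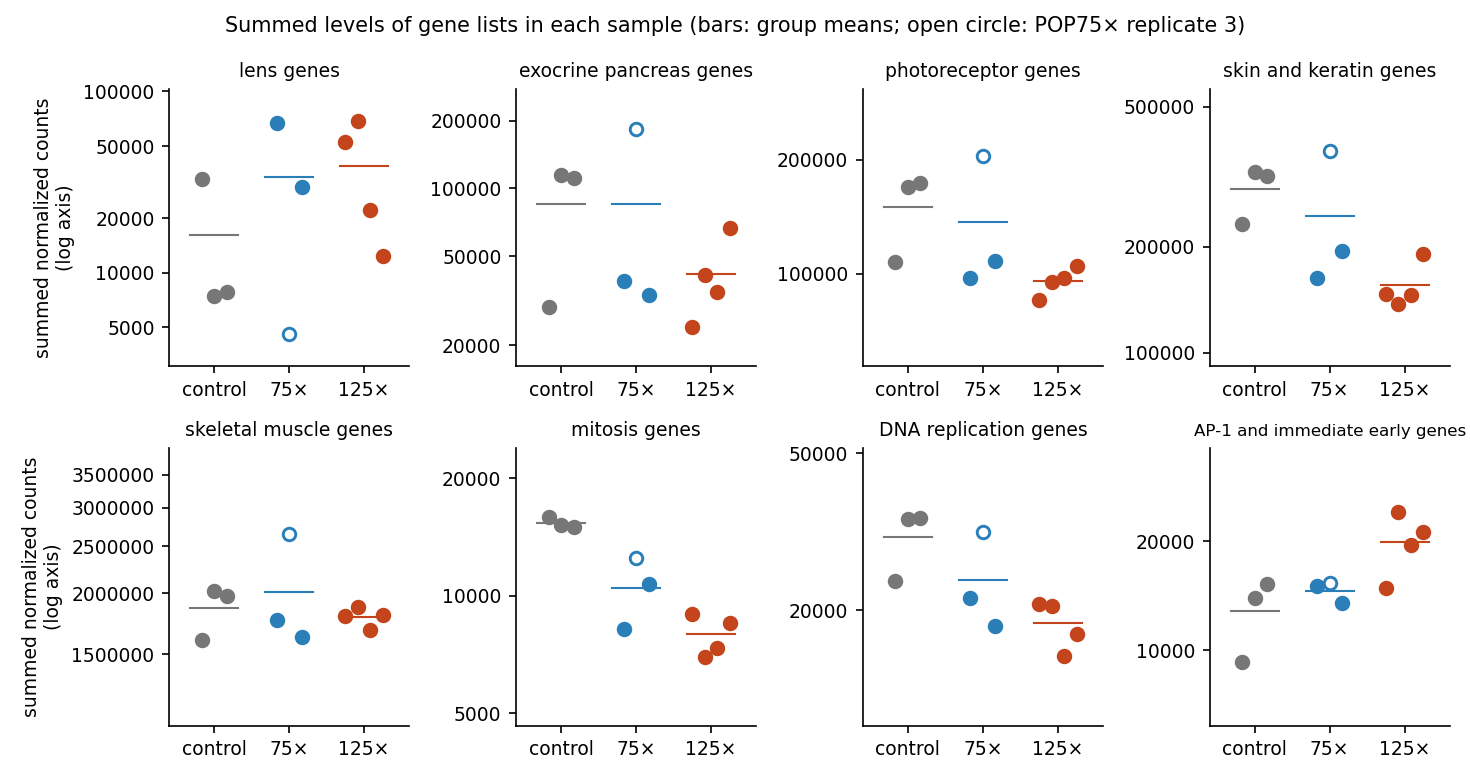
Summed normalized counts (log axis) of 8 gene lists in each control (grey), POP75× (blue) and POP125× (orange) sample, with the group means as bars and POP75× replicate 3 as an open circle. POP75× replicate 3 is the lowest exposed sample for lens genes and the highest for exocrine pancreas, photoreceptor, skin, muscle, mitosis and DNA replication genes, and it does not stand out for AP-1 genes.

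Across the 34 gene lists, none held a gene past the adjusted threshold. Besides the autophagy list above, lists near 0 with all 7 samples included those of the circadian clock (0.01), heat shock and endoplasmic reticulum chaperones (-0.01), cholesterol synthesis (-0.03), ionocytes (-0.01) and endothelium (0.03). The medians so given were, in the same order, -0.04, -0.03, 0.09, 0.05 and 0.04 without POP75× replicate 3. Clock genes still differed within each dose. Their summed level was 45709, 54313 and 63748 in replicates 2, 3 and 4 of POP75×. In replicates 1 to 4 of POP125× it was 43527, 44520, 63490 and 57729. The AP-1 list had nearly the same median with and without POP75× replicate 3, whereas the medians of the injury, Foxo, mitosis, replication and Notch lists were each closer to 0 without it. Other medians were 0.29 for glucocorticoid response genes, 0.19 for genes of the integrated stress response, -0.13 for antioxidant genes and -0.11 for gluconeogenesis and glycogen genes, and 0.20, 0.06, 0.06 and -0.06 without that sample. Members of a list share regulation and samples and are not replicates.

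**Figure D5:**
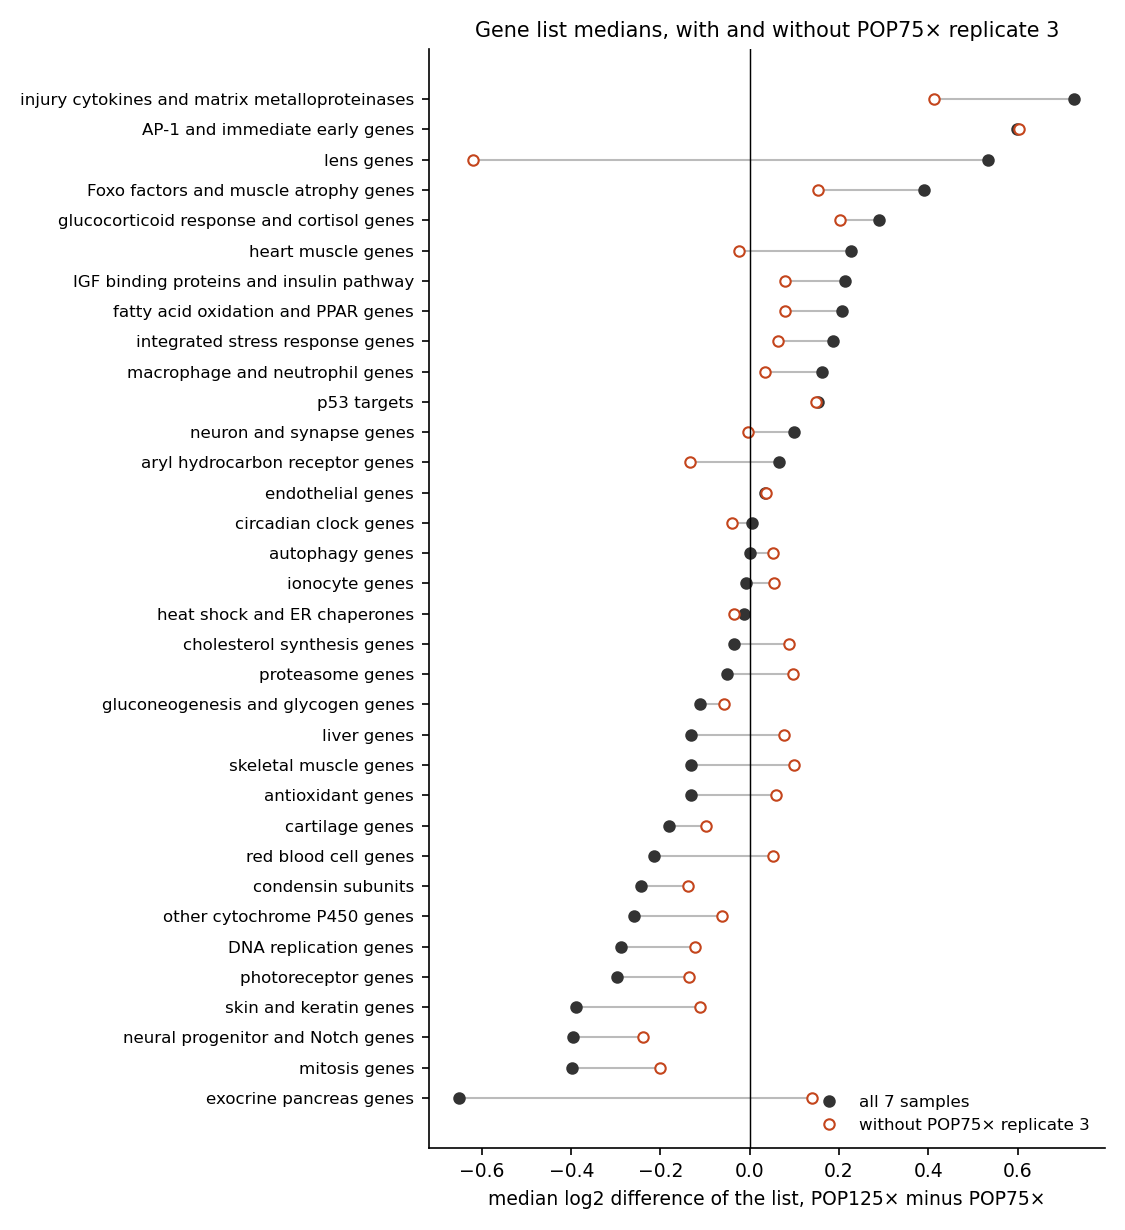
Median log2 difference, POP125× minus POP75×, of each of the 34 gene lists (rows) with all 7 samples (filled) and without POP75× replicate 3 (open). The lens median moves from 0.53 to -0.62 and the exocrine pancreas median from -0.65 to 0.14, while that of AP-1 genes is 0.60 in both cases.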

How the data were processed

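RNA was sequenced as stranded, single-end mRNA libraries from pools of whole zebrafish larvae. By the methods, the authors mapped and counted the reads with an nf-core pipeline on GRCz11 and compared groups with DESeq2. The values the authors deposited are a signal, each gene's read count scaled by a size factor for its sample, and replicates were kept apart. In each sample 100% of these values were whole multiples of the smallest one within a tolerance of 0.001, and the multiples were taken as reads. The deposited comparisons of each dose with control (fold changes and p-values) were not used.

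The limma package (version 3.58.1, R version 4.3.3) was applied to log2(normalized count + 1) of the 4 POP125× and 3 POP75× samples, with an intensity trend, with dose as the only term and 5 residual degrees of freedom. A log2 difference on this scale understates the change of low genes. DEGs had a Benjamini-Hochberg adjusted p under 0.05. Unadjusted p-values are those of this fit, except where another fit or tool is named, which then gave its own. The reads were also tested with edgeR 4.0.16 and DESeq2 1.42.0. Genes under the minimum of 10 normalized counts in 3 samples (10957) were not tested, so differences among them were not detectable at this depth. Of the listed symbols, 566 stand for several identifiers. Scripts were tested on simulated data. Plots used matplotlib 3.10.9 in Python 3.11.15.

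Named genes were chosen first among non-overlapping genes whose symbol stands for a single identifier, with a mean of at least 50 normalized counts. Of these, the 12 with the lowest p were taken in each direction. The 5 with the largest difference at an unadjusted p under 0.05 were taken too. Then came *fbxo32*, *fosb*, *cdca7a* and *calcoco1b*. Last came up to 4 members of each list with at least 3 members beyond the unadjusted threshold in one direction and at least 2 times the share of all genes. Non-overlap was not asked of these list members. The members and lists were chosen with earlier results of these data known. Of the named genes, 52 of 56 matched a RefSeq entry of the GRCz12tu assembly, used for gene order only. Sequences and coordinates are not given. Alternatives were the tool, the samples in the fit, the replicate number or the set of samples as a term, scaling, pseudocount, filter and leaving out each sample.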

Additional observations from a re-analysis of the deposited data

Results flagged for a closer look

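In 90 groups of 4 POP125× values, those of the 56 named genes and of the 34 summed gene lists, one sample lay far from the other 3 by Dixon's criterion in 3 groups. Chance flags about 1 in 20 groups, so this number is not above what chance gives. For *insrb*, an insulin receptor gene, POP125× replicate 1 had 1997 normalized counts against 1503 to 1536 in the others. For *synpo2b*, an actin-binding protein of muscle, POP125× replicate 1 had 303 against 239.6 to 242. The summed level of the proteasome genes was 49260.4 normalized counts in POP125× replicate 2 and 42942 to 43538 in the others, while the POP75× samples ranged from 36017 to 56991. The criterion was applied to the POP125× samples only. The POP75× samples, replicate 3 among them, were not examined by it and so cannot be among these cases.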

How the results depend on the processing

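The count of 0 DEGs was the same in limma with all 10 samples in the fit, with other pseudocounts, scalings and filters, and in edgeR. It was 10 with DESeq2 on the 7 samples and 21 on all 10 samples, 19 higher and 2 lower (*ngb* and *bcl6ab*). It was 1 in limma without the trend (*CR954226.2*), 4 in limma with the set of samples as a term (*cbarpb*, *psme4a*, *znf648* and one identifier of *rnps1*) and 1 in edgeR with that term (*cbarpb*), an alternative chosen after seeing the data. *CR954226.2* passed the filter mainly through POP125× samples, so its call is a description only. With the set as a term, 2432 genes in limma and 2447 in edgeR were at an unadjusted p under 0.05, against 824 and 815 without it, and the cause was not tested. The sets came from clustering of the same expression values that these fits test, so calls with this term are a description only. POP75× replicate 3 is the only exposed sample of its set and so adds nothing to that fit. Leaving out one sample at a time gave 0 to 1 DEGs and 459 to 2332 genes at an unadjusted p under 0.05, the lowest without POP125× replicate 2, then 482 without POP125× replicate 3, and the highest without POP75× replicate 2 (2332, with 1 DEG, *irf1b*) and POP75× replicate 4 (1292). Without POP75× replicate 3 there were 782. DESeq2 without that sample called 2 genes and found 633 at an unadjusted p under 0.05.

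The replicate numbers were not used as pairs. After the mean of each dose group was subtracted, same-numbered samples correlated at 0.49, 0.12 and 0.06 for numbers 2, 3 and 4. POP75× replicate 2 correlated at 0.50 with POP125× replicate 1, slightly more than with its own number. With so few samples these values cannot decide whether equal numbers mark a shared experiment. With the replicate block 0 DEGs were found and 843 genes at an unadjusted p under 0.05. Over 999 combinations of a named gene and an alternative, 973 kept their direction and side of the threshold, 26 passed it and 0 changed direction. The named genes were chosen by a low p in this same comparison, many of them by non-overlap too, so nothing is read from the lack of reversals. In 9 further combinations DESeq2 gave no adjusted p (*il11a*, *cxcl8a*, *ska1*, *ccnb2* and *BX571960.2*), and these were not counted. Of 680 such combinations for list medians, 18 moved by more than the SD between the replicates of that list and 662 did not. That SD included POP75× replicate 3, and a change of sign was not counted apart. List medians that turned sign without that sample can therefore be among the 662, which are not a count of stable lists. A search for motifs in promoters was not run.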

Other observations

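The genes that follow were picked after their values were seen, each from a list or an alternative test, and none passed the test of limma. Values did not overlap in 2.95% (higher) and 2.75% (lower) of all genes, so non-overlap of these genes is a description only. *pcsk1* (ENSDARG00000002600), the protease that cuts prohormones, had 1168, 524 and 1079 at POP75× and 1716, 1714, 2398 and 2369 at POP125× (log2 difference 1.21, SE 0.29, 0.85 without POP75× replicate 3), and *pdyn* (ENSDARG00000087798), the precursor of dynorphin, had 185, 77.8 and 104 at POP75× and 256, 231, 341 and 272 at POP125× (log2 difference 1.25, SE 0.29, 0.97 without POP75× replicate 3). Neither gene's groups overlapped, and DESeq2 with all 10 samples called both. The vesicular glutamate transporters *slc17a6a* and *slc17a6b* had 596, 338 and 547 at POP75× and 785, 652, 759 and 657 at POP125× for the first (log2 difference 0.57, SE 0.21, 0.32 without POP75× replicate 3) and 1600.5, 947 and 1581 at POP75× and 1852, 1881, 1893 and 1909 at POP125× for the second (log2 difference 0.49, SE 0.20, 0.24 without POP75× replicate 3), without overlap in either.

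Single genes of metabolism and stress, picked in the same way, also had POP125× values apart from the POP75× values, against the same shares of all genes. *pnpla2* (ENSDARG00000089390), the lipase that starts the breakdown of stored fat, had 133, 71.4 and 113 at POP75× and 187, 206, 193 and 251 at POP125× (log2 difference 1.01, SE 0.24, 0.75 without POP75× replicate 3), and *acss1* (ENSDARG00000044142), which makes acetyl-CoA in mitochondria, had 349, 289.8 and 332 at POP75× and 427, 524, 546 and 524 at POP125× (log2 difference 0.64, SE 0.15, 0.56 without POP75× replicate 3), again without overlap. In the integrated stress response list, 2 of 20 tested genes were at an unadjusted p under 0.05, both higher (10.0%, against 2.48% of all genes). The list median was 0.19, and 0.06 without POP75× replicate 3. Of this list, *trib3* had 469, 427 and 433 at POP75× and 482, 714, 579.7 and 638 at POP125× (log2 difference 0.43, SE 0.16, 0.41 without POP75× replicate 3). *sesn2* had 221, 204 and 172 at POP75× and 239.6, 285, 339 and 268 at POP125× (log2 difference 0.50, SE 0.18, 0.52 without POP75× replicate 3). In both, the highest POP75× value was close to the lowest POP125× value. *ptf1a* (ENSDARG00000014479), the transcription factor that sets up the exocrine pancreas, had 39.2, 77.8 and 42.0 at POP75× and 23.1, 17.0, 34.6 and 25.3 at POP125× (log2 difference -1.03, SE 0.34, -0.72 without POP75× replicate 3). It was 1 of 24 tested pancreas genes whose groups did not overlap, against 2.75% of all genes with lower levels. The list went the other way without POP75× replicate 3, with 19 of 24 genes above 0 and a median of 0.14. *apoba* (ENSDARG00000042780), an apolipoprotein of lipid-carrying particles, had 4953, 4738 and 5875 at POP75× and 4221, 3396, 3015 and 3342 at POP125× (log2 difference -0.58, SE 0.17, -0.64 without POP75× replicate 3).

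The table holds *rnps1*, a splicing factor, under 2 identifiers with log2 differences of opposite sign. ENSDARG00000100188 had 575, 886 and 594 normalized counts at POP75× and 449.7, 390.4, 544 and 448 at POP125× (log2 difference -0.56, SE 0.20, -0.36 without POP75× replicate 3). ENSDARG00000116743 had 42.0, 265 and 43.0 at POP75× and 171, 165, 99.1 and 164 at POP125× (log2 difference 0.89, SE 0.59, 1.76 without POP75× replicate 3). With an SE of this size, the sign of the second difference is not settled in the fit with POP75× replicate 3. Reads may be shared between these identifiers. POP75× replicate 3 had the highest POP75× value in both, and its part in the difference was not tested.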
